A study of Mus musculus with 6 samples.

Results

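Cadherins are surface proteins with calcium-binding extracellular repeats through which neighbouring cells hold on to each other. The RNA of their genes was read in primary fibroblasts of mouse embryos at stage E14.5, 3 samples of wildtype genotype and 3 of genotype FOG-2 Rb-. FOG-2 Rb- is a knock-in allele of Zfpm2, the gene of FOG-2, a partner of GATA factors, whose product cannot bind pRb, the retinoblastoma protein, according to the title of the study. All samples were collected while proliferating, before differentiation, from cultures in DMEM/F12 with 20% donor bovine serum, and total RNA was hybridised to Affymetrix whole-transcript arrays. The wild type titles read Wt-18 and the others Ki-27, and the labels do not say whether the 3 experiments of a genotype were separate embryos, cultures or pools. P-values therefore reflect only how far these samples spread, possibly for technical reasons, and genotype cannot be told apart from whatever those numbers mark. The genes described were all rows of the deposited table whose symbol is Cdh, Cdhr or Pcdh with a number (Pcdh11x included), Fat1 to Fat4, Celsr1 to Celsr3 or Dchs1. They were 48 of 23748 rows, and the clustered protocadherins and the desmosomal cadherins fall outside this rule.

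As background, classical cadherins of types I and II bind like partners on the next cell and are anchored through catenins to the actin cytoskeleton at adherens junctions. Fibroblasts and other mesenchymal cells are known for Cdh2 (N-cadherin) and Cdh11 (OB-cadherin), epithelia for Cdh1 (E-cadherin) and Cdh3 (P-cadherin), and endothelium for Cdh5 (VE-cadherin). Unclustered protocadherins bind more weakly and signal through other cytoplasmic partners. Fat and Dachsous cadherins form a ligand and receptor pair, and Celsr proteins serve planar cell polarity, the alignment of cells within a sheet.

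Values are the authors' log2 expression from RMA, which corrects background, normalizes between arrays and summarises probes. A difference was called at an adjusted p under 0.05 from limma's moderated test over all 23748 rows (Benjamini-Hochberg), and every adjusted p below is from that fit. Folds divide FOG-2 Rb- by wild type for higher genes and the reverse for lower ones. Of the 48 genes, 8 were higher in FOG-2 Rb- cells, 7 were lower and 33 did not pass. That is 31.2% called, where 18% of all rows were called, 9.44% as higher and 8.59% as lower. By 2-fold or more, 4 of the 48 were called (Cdh3, Cdh10, Cdh13 and Pcdh19), against 1.24% of all rows. For 21 of the 48 the values of the genotypes did not overlap, against 35.6% of all rows. The median log2 fold change was -0.03 over the 48 genes and -0.02 over all rows, and the median absolute log2 fold change was 0.13 and 0.10.

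Many of these genes gave low signals. The mean log2 values of 1366 odorant and vomeronasal receptor rows, genes of sensory neurons, had a 95th percentile of 5.07, which served as a rough yardstick for dim rows. By it 22 of the 48 genes were dim, 1 of them called (Pcdh11x), and 26 lay above, 14 of them called. Among all 14050 rows at or above that level 28.2% were called. Probe sets differ in their own background, so a value below the level does not show that a gene was silent. Fold changes near it tend to be understated. The median log2 values of the 6 arrays, both genotypes together, lay between 5.65 and 5.73. Zfpm2, the targeted gene, had mean log2 values of 9.68 ± 0.07 in wild type and 9.40 ± 0.01 in FOG-2 Rb- (SD, n = 3 each). It was called 1.22-fold lower (adjusted p = 0.00913), without overlap and in all 6 fits with 1 array left out. An altered binding site need not change that level, so it does not check the labels.

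**Figure D1:**
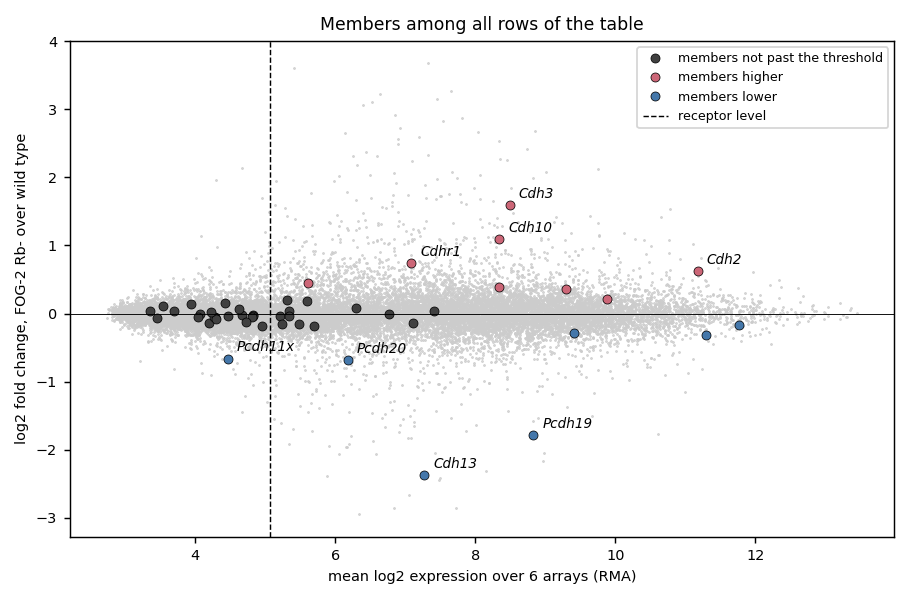
Each grey point is a row of the table, with its mean log2 expression over the 6 arrays on the horizontal axis and its log2 fold change (FOG-2 Rb- over wild type) on the vertical axis. Larger points are the 48 cadherin family genes (red higher, blue lower, black not past the threshold), the dashed line marks the receptor level of 5.07, and genes changed by at least 1.5-fold are named.

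Among the type I classical cadherins, Cdh3 and Cdh2 rose and Cdh1, Cdh4 and Cdh15 did not pass. Cdh3, the P-cadherin of basal epithelia, had log2 values of 7.66, 7.66 and 7.77 in the wild type arrays (replicates 1 to 3, as in each series of values below) and 9.24, 9.31 and 9.32 in the FOG-2 Rb- arrays. All FOG-2 Rb- arrays lay well above all wild type arrays, and the SD of the replicates was 0.06 in wild type and 0.04 in FOG-2 Rb-. Cdh3 rose 3.02-fold (log2 fold change 1.59, SE 0.05, adjusted p = 7.54e-06), which was the largest rise of the 48 genes. Cdh2, the N-cadherin of mesenchyme, neurons and heart, measured 10.84, 10.87 and 10.90 in wild type and 11.53, 11.43 and 11.50 in FOG-2 Rb-. The groups did not overlap, and Cdh2 rose 1.54-fold (log2 fold change 0.62, SE 0.05, adjusted p = 0.000298). Both calls held with any 1 array left out.

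Cdh1, the E-cadherin of epithelia, measured 5.27, 5.28 and 5.06 in wild type and 5.41, 5.41 and 5.40 in FOG-2 Rb-, close to the level of the receptor rows. The groups did not overlap, but the log2 fold change of 0.20 (95% interval 0.04 to 0.36) did not pass (adjusted p = 0.0983). After a new quantile normalization it did (adjusted p = 0.0438). In the RefSeq gene order (GRCm38.p6) Cdh3 and Cdh1 are next to each other, so the gene with the largest rise had as its neighbour one that stayed near the receptor level in every array. Cdh15, the M-cadherin of skeletal muscle, differed by -0.03 on the log2 scale (adjusted p = 0.885). Cdh4, the R-cadherin of retina and other neural tissue, was dim and differed by -0.01 (adjusted p = 0.901).

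Of 13 type II classical cadherins, Cdh10 and Cdh18 rose, Cdh11 fell and 10 did not pass. Cdh10, best known from brain, measured 7.75, 7.83 and 7.81 in wild type and 8.84, 8.97 and 8.84 in FOG-2 Rb-. The lowest FOG-2 Rb- array stood about 1 log2 unit above the highest wild type array. Cdh10 rose 2.13-fold (log2 fold change 1.09, SE 0.06, adjusted p = 4.77e-05). Cdh18, also best known from brain, measured 8.06, 8.21 and 8.16 in wild type and 8.52, 8.53 and 8.53 in FOG-2 Rb-. Its rise of 1.31-fold (log2 fold change 0.39, SE 0.05, adjusted p = 0.0035) came with almost equal values in the FOG-2 Rb- arrays. Cdh11, the cadherin of mesenchyme and osteoblasts, measured 11.49, 11.45 and 11.44 in wild type and 11.09, 11.21 and 11.13 in FOG-2 Rb-. It stayed far above the receptor level in both genotypes and was 1.25-fold lower (log2 fold change -0.32, SE 0.05, adjusted p = 0.00595). These 3 calls held with any 1 array left out.

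Cdh5, the cadherin of endothelium, measured 5.35, 5.38 and 5.20 in wild type and 5.35, 5.18 and 5.54 in FOG-2 Rb-. The groups overlapped and the log2 fold change was 0.04 (95% interval -0.19 to 0.28, adjusted p = 0.814). The type II genes Cdh7, Cdh8, Cdh9, Cdh12, Cdh19 and Cdh20 were dim by the yardstick above. Cdh6, the kidney cadherin, and Cdh24 were above it, and their log2 fold changes were 0.08 (adjusted p = 0.713) and 0.00 (adjusted p = 1.0). Cdh22 had a log2 fold change of -0.15 (95% interval -0.27 to -0.04, adjusted p = 0.0769), which passed without dim rows (adjusted p = 0.031).

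Several type II genes are neighbours. Among protein-coding genes of RefSeq, Cdh6, Cdh9, Cdh10 and Cdh12 follow one another directly, and Cdh18 comes after Cdh12 with only Acot10 between them. Cdh10 and Cdh18 rose, while Cdh9 (log2 fold change 0.04) and Cdh12 (0.13, adjusted p = 0.229), the genes on either side of Cdh10, did not pass and were dim. The whole stretch lies on the chromosome of Zfpm2, with 71 to 76 protein-coding genes between each of the 5 and the targeted gene. Cdh8, Cdh11 and Cdh5 form another such run, of which Cdh11 alone was called. The upstream sequence of Cdh10 is shown because it was the gene with the largest rise that has an entry in the RefSeq promoter table. It holds the 250 bases before the annotated start (GRCm38.p6, chr15:18820079-18820328, plus strand). Capitals would mark matches to the motifs described further on, and this window held none.

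Cdh10: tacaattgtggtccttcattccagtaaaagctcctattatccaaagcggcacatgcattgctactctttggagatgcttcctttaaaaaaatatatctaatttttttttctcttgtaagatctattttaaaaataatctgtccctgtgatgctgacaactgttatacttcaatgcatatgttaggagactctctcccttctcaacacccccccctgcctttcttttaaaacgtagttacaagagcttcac

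Among the atypical cadherins, Cdh13 had the largest fall of the 48 genes. Cdh13 encodes T-cadherin, which is held in the membrane by a lipid anchor, lacks the catenin-binding tail and is known as a receptor for the fat hormone adiponectin. It measured 8.47, 8.27 and 8.63 in wild type and 5.92, 5.87 and 6.46 in FOG-2 Rb-. The highest FOG-2 Rb- array stood well below the lowest wild type array, although replicates varied widely (SD 0.18 in wild type and 0.33 in FOG-2 Rb-, n = 3 each). Cdh13 was 5.19-fold lower (log2 fold change -2.38, SE 0.17, adjusted p = 0.00019), and 4.82-fold to 5.91-fold with 1 array left out. Cdh26 measured 5.57, 5.46 and 5.13 in wild type and 5.73, 5.94 and 5.83 in FOG-2 Rb-. The groups did not overlap, and it was called 1.37-fold higher (log2 fold change 0.45, SE 0.12, adjusted p = 0.0395). That call was lost without wild type replicate 2 or any 1 of the FOG-2 Rb- arrays (adjusted p between 0.0296 and 0.12 over the 6 fits with 1 array left out), with the replicate number as a block (0.0615) and from the p-values of the authors' deposited table after Benjamini-Hochberg adjustment (0.139). Cdh16 of kidney, Cdh17 of intestine and Cdh23 of the inner ear hair bundle were dim and did not pass, with log2 fold changes from -0.06 to -0.02.

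Of the 5 cadherin-related genes, Cdhr1 rose. Cdhr1, known as the photoreceptor cadherin, measured 6.60, 6.70 and 6.83 in wild type and 7.52, 7.42 and 7.43 in FOG-2 Rb-. All FOG-2 Rb- arrays were higher than all wild type arrays. The rise was 1.67-fold (log2 fold change 0.74, SE 0.07, adjusted p = 0.000584). Cdhr2 and Cdhr5, which link the microvilli of the gut brush border, as well as Cdhr3 and Cdhr4, were dim and did not pass, with log2 fold changes between -0.05 and 0.12. The window before the Cdhr1 start (GRCm38.p6, chr14:37098348-37098597, minus strand) is shown with its single E-box word in capitals, 119 bases before the start.

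Cdhr1: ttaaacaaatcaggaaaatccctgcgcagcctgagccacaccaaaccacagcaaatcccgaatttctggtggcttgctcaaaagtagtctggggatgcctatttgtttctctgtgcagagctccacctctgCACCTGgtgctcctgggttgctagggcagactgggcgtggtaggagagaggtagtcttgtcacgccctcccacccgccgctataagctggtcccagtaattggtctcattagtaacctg

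Of 12 unclustered protocadherins measured, 4 were called lower, 1 higher and 7 did not pass, and Pcdh19 had the largest fall. Pcdh19, an X-linked protocadherin that pairs with N-cadherin and is mutated in a human epilepsy, measured 9.71, 9.71 and 9.75 in wild type and 7.99, 7.99 and 7.81 in FOG-2 Rb-. The genotypes were far apart and the wild type arrays nearly equal. Pcdh19 was 3.46-fold lower (log2 fold change -1.79, SE 0.06, adjusted p = 1.04e-05), and 3.32-fold to 3.54-fold with 1 array left out. Of the other members of its delta-2 subfamily, Pcdh18 measured 9.56, 9.59 and 9.53 in wild type and 9.23, 9.37 and 9.22 in FOG-2 Rb-. It was called 1.22-fold lower (log2 fold change -0.29, SE 0.06, adjusted p = 0.0143), with no overlap between genotypes. That call was lost when FOG-2 Rb- replicate 1 or 3 or wild type replicate 2 was left out (adjusted p between 0.0141 and 0.0574 over the 6 fits). Pcdh8 (log2 fold change -0.18, adjusted p = 0.074), Pcdh10 (-0.03, adjusted p = 0.848) and Pcdh17 (-0.09, adjusted p = 0.633) did not pass. Of these, Pcdh8 and Pcdh17 were dim.

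Among the delta-1 protocadherins, Pcdh7 was called higher and the X-linked Pcdh11x lower. Pcdh11x measured 4.93, 4.74 and 4.72 in wild type and 4.36, 3.97 and 4.08 in FOG-2 Rb-, all below the receptor level. The groups did not overlap, and the fall was 1.58-fold (log2 fold change -0.66, SE 0.11, adjusted p = 0.00695). It did not pass from the p-values of the authors' deposited table after Benjamini-Hochberg adjustment (adjusted p = 0.0509). Pcdh7 measured 9.80, 9.77 and 9.77 in wild type and 10.01, 9.99 and 9.96 in FOG-2 Rb-. The groups were close but did not overlap, and Pcdh7 was called 1.16-fold higher (log2 fold change 0.21, SE 0.04, adjusted p = 0.0173). Leaving out FOG-2 Rb- replicate 1 or 2 or wild type replicate 2 ended the call (adjusted p between 0.0375 and 0.0637). Pcdh1 had a log2 fold change of 0.19 (95% interval 0.04 to 0.34, adjusted p = 0.0867), which passed without dim rows (adjusted p = 0.044), and Pcdh9 of -0.14 (adjusted p = 0.209).

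Of the remaining protocadherins, Pcdh20 fell. It measured 6.41, 6.45 and 6.71 in wild type and 5.84, 5.75 and 5.92 in FOG-2 Rb-. Every FOG-2 Rb- array was below every wild type array. The fall was 1.61-fold (log2 fold change -0.69, SE 0.09, adjusted p = 0.0029) and held with any 1 array left out. Its neighbour in gene order is Pcdh9, which did not pass. Pcdh12, a protocadherin of endothelium, did not pass (log2 fold change -0.19, adjusted p = 0.116). Nor did Pcdh15, the partner of Cdh23 in the hair cell tip link, which was dim (-0.05, adjusted p = 0.666). The windows before the Pcdh19 start (GRCm38.p6, chrX:133688994-133689243, minus strand) and the Pcdh20 start (chr14:88471397-88471646, minus strand) are shown because these were the largest falls with an entry in the promoter table. Pcdh20 holds a GATA word, in capitals and read on the other strand, 203 bases before the start, and Pcdh19 holds none of the motifs.

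Pcdh19: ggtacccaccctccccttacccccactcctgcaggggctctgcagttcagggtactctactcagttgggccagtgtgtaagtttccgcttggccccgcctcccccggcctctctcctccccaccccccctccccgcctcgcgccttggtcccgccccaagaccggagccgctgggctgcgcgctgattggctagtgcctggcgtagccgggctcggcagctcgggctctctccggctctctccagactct

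Pcdh20: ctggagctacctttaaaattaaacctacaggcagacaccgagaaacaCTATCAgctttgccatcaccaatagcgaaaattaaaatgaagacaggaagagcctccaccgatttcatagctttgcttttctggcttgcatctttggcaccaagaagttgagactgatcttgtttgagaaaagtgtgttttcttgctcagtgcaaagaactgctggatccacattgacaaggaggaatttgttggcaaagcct

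The 3 motifs below were searched on both strands of these 250-base windows. These were GATA words (the letters GATA with A or T before and A or G after them), E2F words (TTTNNCGC, where each N is C or G) and the E-box word CACCTG. The RefSeq table held 36 windows for 33 of the 48 genes, 10 of them called. A GATA word was present in 8 of the 36 windows (22.2%) and in 26.5% of all 32851 windows of the table. An E-box word was present in 7 (19.4%, against 17.2% of all windows) and an E2F word in 1 (2.78%, against 1.86%), that of Cdh22. Among windows of called genes, Cdh26, Fat1 and Pcdh20 held a GATA word, and Cdhr1 and Fat1 an E-box word. A match describes the letters only.

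Of the giant cadherins, Fat4 rose, Fat1 was called lower and Fat2, Fat3 and Dchs1 did not pass. Fat4, the receptor for Dchs1, measured 9.14, 9.15 and 9.04 in wild type and 9.46, 9.49 and 9.46 in FOG-2 Rb-. The groups did not overlap, and the rise of 1.28-fold (log2 fold change 0.36, SE 0.05, adjusted p = 0.00347) held with any 1 array left out. Dchs1, its ligand, had a log2 fold change of 0.03 (95% interval -0.10 to 0.16, adjusted p = 0.764), with overlapping groups. Fat1, known for its role at actin-rich cell edges, measured 11.87, 11.83 and 11.84 in wild type and 11.70, 11.70 and 11.65 in FOG-2 Rb-. It was called 1.12-fold lower (log2 fold change -0.16, SE 0.04, adjusted p = 0.045) and lost the call without any 1 of the 6 arrays (adjusted p between 0.0923 and 0.143), with centred arrays and with a new quantile normalization. Fat2 and Fat3 were dim. Of the Celsr genes, Celsr1 had the smallest p. It measured 5.35, 5.29 and 5.28 in wild type and 5.33, 5.01 and 5.14 in FOG-2 Rb-, with overlapping groups (log2 fold change -0.15, adjusted p = 0.293). Celsr2 and Celsr3 were dim and did not pass.

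**Figure D2:**
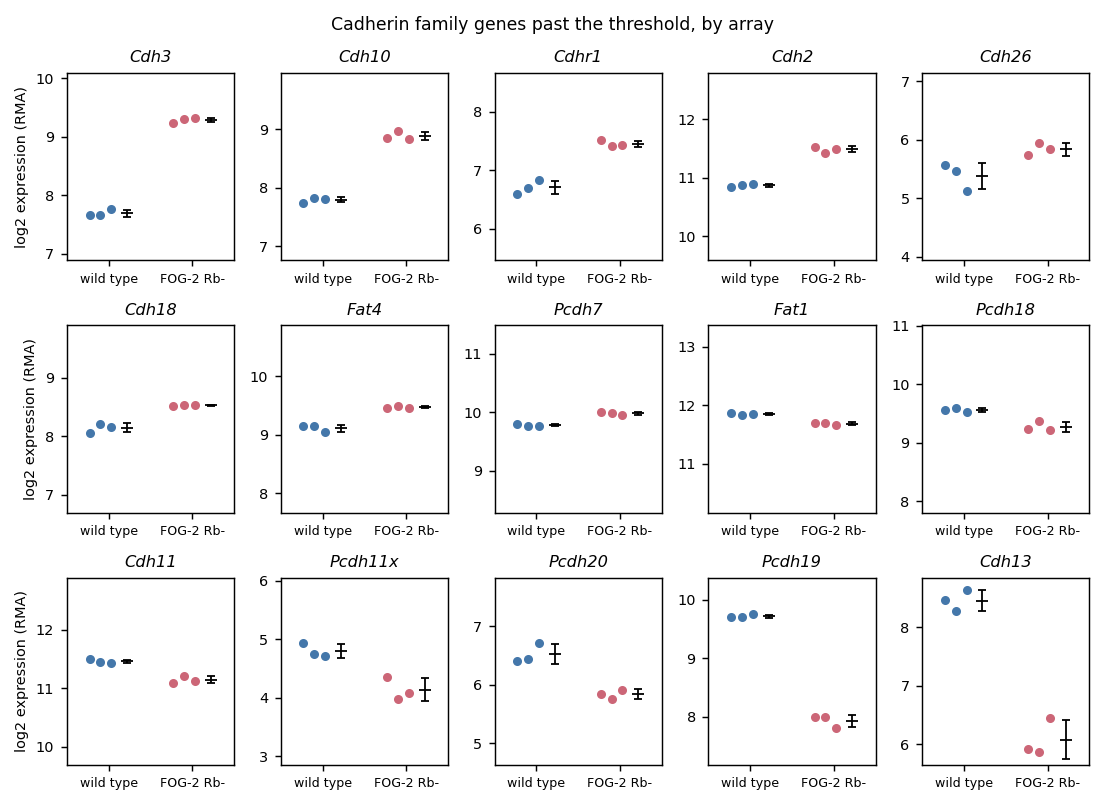
Log2 expression of the 15 called genes in each array, ordered from the largest rise to the largest fall, with wild type in blue and FOG-2 Rb- in red. Points are replicates 1 to 3 from left to right, black marks the mean with SD (n = 3), and every vertical axis spans the same range. In no panel do the genotypes overlap, which a call with 3 arrays per genotype largely requires. The gap is widest for Cdh13, Pcdh19 and Cdh3.

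Across the classes, the 15 called genes had no overlap between genotypes, and 11 of them were called in each of the 6 fits that left out 1 array. The exceptions were Cdh26, Pcdh7, Pcdh18 and Fat1. Among the 33 genes that did not pass, log2 fold changes ran from -0.19 to 0.20, and their 95% intervals from -0.36 to 0.41. Of these 33 genes, 21 were dim and 12 were not. Changes of the size seen for Cdh3 or Pcdh19 lay outside every one of these intervals.

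**Figure D3:**
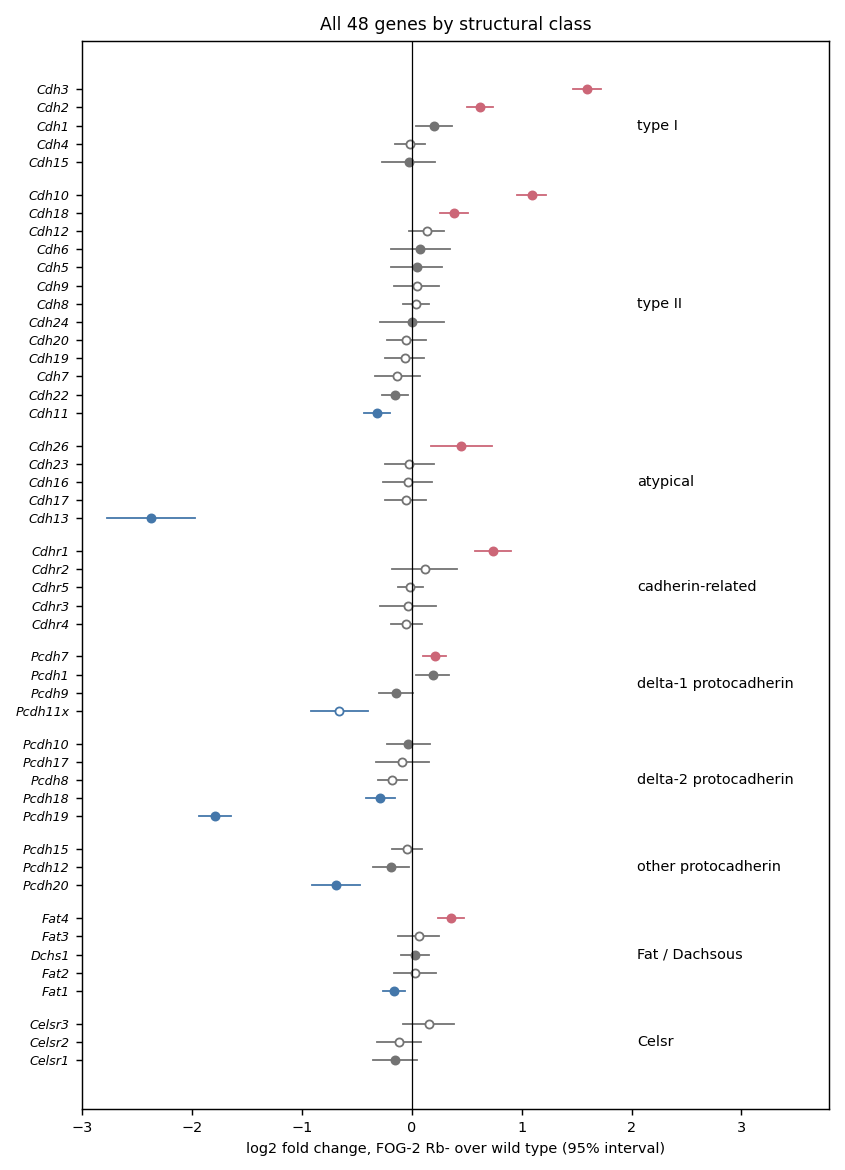
Log2 fold change (FOG-2 Rb- over wild type) of all 48 genes by structural class, with limma's 95% interval as a bar. Red genes were called higher, blue genes lower and grey genes did not pass, and open circles mark genes with a mean below the receptor level of 5.07. Called changes in both directions occur among type II, atypical, delta-1 and Fat cadherins, while the called type I genes were higher and the called delta-2 genes lower.

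Genes that work with cadherins were counted from 7 lists. Of 64 genes measured, 15 were called higher and 6 lower. That is 32.8%, beside 18% of all rows and 28.2% of rows at or above the receptor level. These counts describe the lists and test nothing about them. In the list of catenins and linkers, which tie classical cadherins to actin, 3 of 11 were called higher and 2 lower. Jup, the plakoglobin of adherens junctions and desmosomes, measured 8.19, 8.16 and 8.18 in wild type and 8.85, 8.86 and 8.80 in FOG-2 Rb-, a rise of 1.58-fold (adjusted p = 0.00014). Ctnnd1, the p120 catenin that keeps cadherins at the surface, measured 10.71, 10.71 and 10.70 in wild type and 11.10, 11.09 and 11.10 in FOG-2 Rb-, a rise of 1.31-fold (adjusted p = 0.00107). The groups were separate for both. Ctnna2, below the receptor level in every array, was called 1.23-fold lower (adjusted p = 0.0266) and Pkp4 1.20-fold lower (adjusted p = 0.0371). They lost their calls in 4 and 5 of the 6 fits with 1 array left out. Vcl, the vinculin gene and the last of the 5 (1.11-fold higher, adjusted p = 0.0487), lost it in all 6. Ctnna1 and Ctnnb1, the alpha and beta catenin genes, are named here with their values already known: neither passed, at 0.14 (adjusted p = 0.0695) and 0.09 (adjusted p = 0.231) on the log2 scale. Ctnna1 passed with a variance trend, without dim rows and from the p-values of the authors' deposited table, and Ctnnb1 with a variance trend.

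Of 4 nectins, adhesion receptors of the immunoglobulin type at adherens junctions, Nectin2 rose 1.83-fold (log2 fold change 0.87, SE 0.06, adjusted p = 0.000161) and 3 did not pass. Of 13 desmosome genes, Pkp2, a plaque protein, rose 2.45-fold (log2 fold change 1.29, SE 0.05, adjusted p = 2.04e-05) while the other 12 did not pass, and 10 of the list were dim: every desmosomal cadherin gene except Dsg1a, and the plaque genes Dsp and Pkp1. Of 15 measured planar polarity genes, 5 were called higher and 2 lower. Fzd6, a polarity receptor, measured 7.52, 7.64 and 7.60 in wild type and 9.44, 9.44 and 9.41 in FOG-2 Rb-, a rise of 3.58-fold (adjusted p = 3.97e-06). Prickle1, a cytoplasmic polarity protein, rose 1.70-fold (adjusted p = 0.000379), and Dvl3, a Frizzled effector, rose 1.43-fold (adjusted p = 0.000797). Fjx1, the homologue of the fly kinase four-jointed that modifies Fat and Dachsous, rose 1.40-fold (adjusted p = 0.00259). Ptk7 was 1.29-fold lower (adjusted p = 0.00525) and held with any 1 array left out. Prickle2 (1.31-fold lower, adjusted p = 0.0162) and Prickle3 (1.20-fold higher, adjusted p = 0.0288) were called in 3 and 1 of those 6 fits.

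Of 7 proteases that cut cadherins or related surface proteins, 3 rose and 0 fell. Adam12 rose 2.29-fold (adjusted p = 2.56e-05), Adam9 1.35-fold (adjusted p = 0.000949) and Adam10, which sheds E- and N-cadherin, 1.34-fold (adjusted p = 0.000788). Of 6 factors known to repress Cdh1, Twist2 was called 1.26-fold higher (adjusted p = 0.0156) and Snai1 1.29-fold lower (adjusted p = 0.0496). These calls were lost in 3 and 5 of the 6 fits with 1 array left out, and Snai2, Zeb1, Zeb2 and Twist1 did not pass. Of 8 genes of the WAVE complex, which delta-2 protocadherins bind, Wasf3 was called 1.29-fold lower (adjusted p = 0.0426) and Wasf2 1.15-fold higher (adjusted p = 0.0227), in 2 and 1 of those 6 fits.

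**Figure D4:**
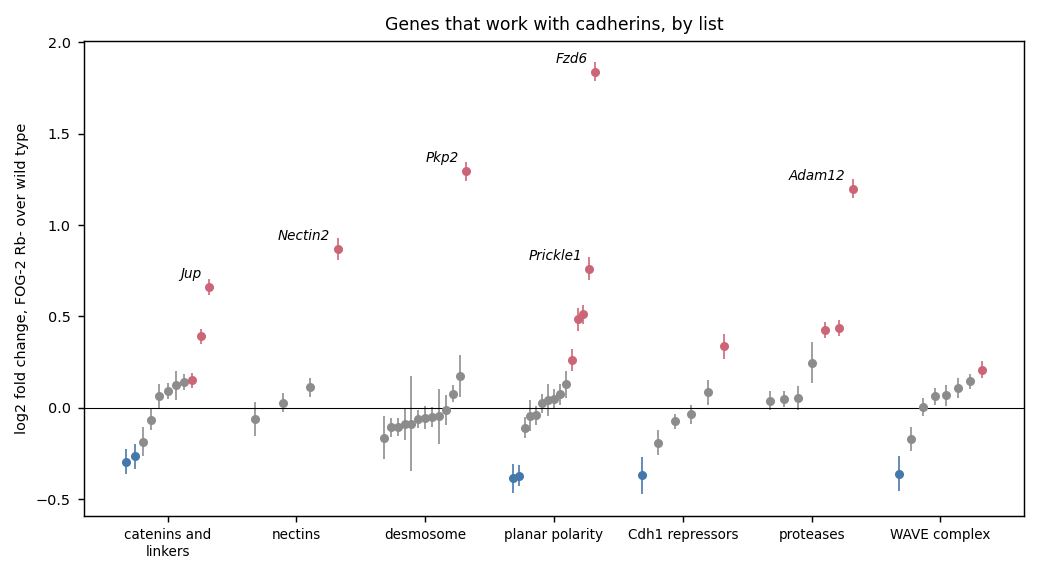
Log2 fold change (FOG-2 Rb- over wild type) of the 64 measured genes of the 7 lists, 1 point per gene with limma's SE as a bar. Red genes were called higher, blue genes lower and grey genes did not pass; genes changed by at least 1.5-fold are named, and Fzd6, Pkp2 and Adam12 stand highest.

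Markers of cell types were read from the same fit, and 12 of 61 were called higher and 7 lower. That is 31.1%, beside 18% of all rows and 28.2% of rows at or above the receptor level. In bulk RNA, fewer cells of a type and less RNA per cell cannot be told apart. Fibroblast markers other than Lum were well above the receptor level in all arrays, led by Vim (mean log2 13.32 in wild type and 13.37 in FOG-2 Rb-) and Fn1 (12.99 and 13.09). Lum had mean log2 values of 5.89 in wild type and 4.34 in FOG-2 Rb-, the latter below the receptor level. The summed linear level of the 11 genes was 38109 to 39133 in wild type and 37660 to 38090 in FOG-2 Rb-. Brighter genes weigh more in that sum, so it does not show the changes of single markers. Within that list Col1a1 (1.30-fold) and Col3a1 (1.29-fold) rose. Dcn (3.41-fold), Lum (2.93-fold), Pdgfra (1.87-fold), Thy1 (1.71-fold) and S100a4 (1.67-fold) fell.

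Beside the rises of Cdh3 and Cdh2, 3 of 11 epithelial markers rose and 0 fell. Krt18 rose 4.72-fold (adjusted p = 0.000301), Krt19 1.67-fold and Esrp2 1.85-fold, and the summed level was 408 to 433 in wild type and 681 to 719 in FOG-2 Rb-. Krt18 made up 50 to 83 and 272 to 319 of these sums, and the other 10 genes 350 to 360 and 392 to 417, a split made after the values were seen. Krt8, the second brightest of the list, had a log2 fold change of -0.07, and Krt5 (-0.08), Cldn4 (0.01) and Rab25 (-0.08) did not pass either. Epcam, a defining surface marker of epithelium, was dim in both genotypes (mean log2 4.15 in wild type), and so were Esrp1, Grhl2 and Krt14. Of 6 mesothelial markers, Upk3b (2.44-fold), Wt1 (2.10-fold) and Lrrn4 (1.38-fold) rose and Msln fell 2.35-fold. Lrrn4 was dim, below the receptor level in every array, and so was Muc16, which did not pass. The summed level of the 6 genes was 436 to 455 in wild type and 509 to 541 in FOG-2 Rb-. The part of either cell type in the rises of Cdh3 and Cdh2 was not tested.

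Endothelial markers (0 of 8 called, 5 dim) had a summed level of 247 to 267 in wild type and 237 to 251 in FOG-2 Rb-, led by Egfl7 and Pecam1, beside the low values of Cdh5. Skeletal myogenic markers, led by Myog and Des, had summed levels of 254 to 287 and 259 to 273, with Myod1 near the receptor level, beside the low values of Cdh15. Of those 7 genes only Des was called (1.32-fold higher), in 2 of the 6 fits with 1 array left out. Of 7 neural markers, Map2 was called 1.17-fold higher and Stmn2 1.70-fold lower, and Tubb3, Sox2, Dcx and Elavl4 were dim, beside the changes of Cdh10, Cdh18 and Pcdh19. The summed neural level was 723 to 733 in wild type and 773 to 818 in FOG-2 Rb-. It mostly follows Map2 (mean log2 9.12 in wild type and 9.35 in FOG-2 Rb-). Stmn2, the next brightest (6.18 and 5.41), went the other way. The part of neural cells in the changes of those cadherins was not tested. Of 5 measured macrophage markers, Cd68 rose 1.62-fold and Csf1r was called 1.26-fold higher, in 2 of the 6 fits, while C1qa did not pass (log2 fold change -0.17) and Ptprc was dim. None of 3 measured glial and 3 measured erythroid markers passed (limma with Benjamini-Hochberg adjustment; 0 had an unadjusted p under 0.05). The brightest were Foxd3 (mean log2 6.12 in wild type and 6.09 in FOG-2 Rb-) and Sox10 (5.07 and 4.96) of glia, and Klf1 (4.81 in both) and Alas2 (4.19 and 4.03) of red cells, of which Foxd3 alone was not dim.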

How the data were processed

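RNA of growing fibroblasts was measured on 6 arrays, 3 for each genotype. The authors deposited log2 expression values with 1 Entrez gene per row, made with RMA and Partek per the submitters' processing notes; which versions, probe definition and genome build they used is not given in the sources used here. A table the authors deposited gives a p-value, a ratio and a signed fold-change score per gene, per the file headers. The log2 of its ratio differed from the group difference of the log2 values by at most 7.18e-06, which fixes scale and direction. Scanner files were not analysed here, which leaves saturated spots and scan dates unexamined. The number of arrays limits the precision.

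Symbols came from the platform annotation (23111 of 23748 rows). Genotypes were compared by limma's lmFit and eBayes (version 3.58.1, R 4.3.3; a two-sided test with genotype alone in the model), with Benjamini-Hochberg adjustment over all rows and a threshold of 0.05. Summed marker levels are sums of linear values. A permutation test over 3 against 3 arrays cannot give a p below 0.1 and was not run.

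The 48 genes, the 7 partner lists (67 genes, 64 measured) and the 9 marker lists (66 genes, 61 measured) were chosen with earlier results of these data known. Values of every array are given for Cdh1, Cdh2, Cdh5, Cdh11, Cdh13 and, in each structural class, for up to 4 called genes with the largest change, or else the gene with the smallest p. Up to 4 called genes per partner list are named by size of change, and of each marker list the 2 brightest and any called gene; other names were chosen after their values were seen. Alternatives left out each array, added the replicate number as a block, used a variance trend, dropped dim rows, centred or renormalized the arrays, took the deposited p-values, or named rows through Entrez ID.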

Additional observations from a re-analysis of the deposited data

How the results depend on the processing

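The 8 higher and 7 lower cadherin family genes became 6 to 8 higher and 5 to 6 lower with 1 array left out, and 6 to 9 higher and 6 to 7 lower under the other alternatives. No log2 fold change of a called gene changed sign. Naming rows through Entrez ID gave the same 48 genes. Of all rows, 4281 were called, and 2805 to 3446 with 1 array left out, the lowest without FOG-2 Rb- replicate 3. The 6 lower genes of the partner lists became 1 to 5 with 1 array left out, 3 with centred arrays and 2 from the p-values of the authors' deposited table. With the replicate number as a block they became 3, the calls of Cdh26, Pcdh7 and Fat1 were lost, and 3181 rows were called. Deviations from the group means of samples with the same number correlated at 0.03, 0.02 and 0.00 over all rows, so the numbers were not taken to pair the samples. The cause of these shifts was not tested. Signal limits the dim genes: 22 of the 48 lay below the level of the receptor rows, where changes tend to be understated. By how much was not measured here.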

Other observations

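Other proteins with cadherin repeats that the symbol rule leaves out were looked up after the values of the family had been seen. The calsyntenin genes Clstn1, Clstn2 and Clstn3, whose products sit at synapses and on transport vesicles, and Ret, the receptor kinase for the GDNF family, were measured, and 0 of 4 passed (limma with Benjamini-Hochberg adjustment; 0 had an unadjusted p under 0.05). Their median log2 fold change was -0.08. Clstn1 had mean log2 values of 8.93 in wild type and 8.85 in FOG-2 Rb- (adjusted p = 0.355), Ret had 6.82 and 6.75 (adjusted p = 0.54), and Clstn2 was dim.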
